A study of Mus musculus with 6 samples.

Results

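The 8 genes described here encode proteins that control ADAM17 after it has been made: the inactive rhomboids iRhom1 (Rhbdf1) and iRhom2 (Rhbdf2), their partner FRMD8, the convertase furin, and the inhibitors TIMP2, TIMP3, TIMP4 and RECK. They were chosen by name for these known roles, by a rule that uses no measured value, although earlier results of these data were known. Each of the 8 was found among the 51826 genes of the deposited table. All 8 passed the filter on low counts that left 18956 genes for testing. RNA was sequenced from mouse brain tissue labelled as the paraventricular nucleus of the hypothalamus (PVN), as 3 wild-type libraries (WT) and 3 libraries of mice whose glutamatergic neurons lack ADAM17 (KO). The study's design text asks how this knockout alters expression in the nucleus. In each genotype replicates 1 and 2 are male and replicate F1 is female. No treatment is named in the labels, and the sources used here do not give age, strain, Cre driver or deleted exon. Nothing in the labels says that libraries came from separate animals, so p-values measure the spread between these libraries only.

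ADAM17, a protease anchored in the membrane, cuts cytokines, growth factors and receptors, among them tumour necrosis factor and ligands of the epidermal growth factor receptor, off the cell surface. It leaves the endoplasmic reticulum only when bound to an iRhom, a rhomboid-like protein without protease activity; FRMD8 binds the iRhom tail and keeps the complex at the cell surface, and furin-type convertases remove the ADAM17 prodomain on the way. At the surface and in the matrix, tissue inhibitors of metalloproteinases (TIMPs) hold metalloproteases in check: TIMP3 is the main physiological inhibitor of ADAM17, TIMP2 and TIMP4 act mostly on matrix metalloproteinases, and RECK is a membrane-anchored inhibitor that is also a receptor component for WNT7 in brain endothelium.

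Sequences before the start are shown for the inhibitor genes Timp3, Timp4 and Reck. Timp3 and Timp4, which each lie inside a synapsin gene, differ in base composition there. No result on expression, overlap or sex was drawn from these sequences. Windows of 250 bases before each RefSeq start were read (GRCm38.p6), and the part that lies outside the gene's own span is printed, 5′ to 3′ on the gene's strand, with each CG dinucleotide in capitals. For Timp2 no base of the window lies outside that span.
Timp3 (plus strand, chr10:86300162-86300371): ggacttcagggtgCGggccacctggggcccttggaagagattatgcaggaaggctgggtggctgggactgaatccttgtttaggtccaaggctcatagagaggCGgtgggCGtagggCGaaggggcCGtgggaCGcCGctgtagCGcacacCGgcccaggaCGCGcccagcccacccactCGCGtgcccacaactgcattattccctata
Timp4 (minus strand, chr6:115252206-115252455): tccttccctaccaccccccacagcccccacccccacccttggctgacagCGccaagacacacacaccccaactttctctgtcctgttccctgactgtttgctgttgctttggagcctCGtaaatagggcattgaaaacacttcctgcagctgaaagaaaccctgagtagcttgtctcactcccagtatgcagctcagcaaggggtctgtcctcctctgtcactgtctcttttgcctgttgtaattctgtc
Reck (plus strand, chr4:43875280-43875529): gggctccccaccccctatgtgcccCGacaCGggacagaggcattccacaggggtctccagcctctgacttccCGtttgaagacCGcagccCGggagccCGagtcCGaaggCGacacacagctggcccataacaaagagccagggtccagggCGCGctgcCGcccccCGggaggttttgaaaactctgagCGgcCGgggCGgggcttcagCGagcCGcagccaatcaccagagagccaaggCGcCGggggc
The printed Timp3 run held 13 CG dinucleotides in 210 bases. Over the full windows, Timp3 held 18 CG dinucleotides and 65.6% G and C, Reck 19 and 68.4%, Timp2 21 and 68.0%, and Frmd8 22 and 62.8%. The Timp4 window held 2 CG dinucleotides and 53.6% G and C, against medians of 6 and 52.4% over 32851 windows of the same length. Furin had 2 start sites, 1 with 40 CG dinucleotides in its window and 1 with 6. The letters GGGCGG, read on both strands, occurred 1 time each in the full windows of Timp2 and Timp3, 2 times in that of Reck and 0 times in that of Timp4, and at least once in 32.7% of all windows. TATAAA, also read on both strands, occurred in none of these 4 and in 12.4% of all windows. Of the 8 genes, 6 had an entry in the RefSeq promoter table.

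Libraries held between 35114426 and 54421330 counts, at which 3 counts correspond to 0.0551 to 0.0854 CPM (counts scaled to library size). That floor covers counting error only. Libraries differed in makeup. Mitochondrially encoded genes took 20.6% of the counts in KO replicate 1 and 7.22% to 9.2% in the others. WT replicate F1 had the lowest summed level of a list of striatal genes, 409 CPM, where the others had 895 to 1284 CPM. WT replicate 2 had the highest sum of a list of choroid plexus genes, 753 CPM, where the others had 183 to 484 CPM. The tissue label was checked against Sim1, the transcription factor that defines the PVN lineage, which lay at 0.626 to 2.51 CPM. The summed PVN and hypothalamus list lay at 33.2 to 113 CPM, lowest in WT replicate 2 and highest in WT replicate F1. A list of cortical and hippocampal genes lay at 362 to 717 CPM. In bulk tissue such as this, fewer cells of a type and less RNA per cell cannot be told apart. Adam17 itself had 17.1, 17.2 and 15.6 CPM in the WT libraries (replicates 1, 2 and F1) against 15.4, 14.6 and 13.9 CPM in the KO libraries. The genotypes did not overlap, which held for 13.9% of all genes tested. The log2 fold change (KO minus WT) was −0.19 (SE 0.107, edgeR adjusted p = 0.747). Its values cover the whole gene and all cells of the tissue, so they do not check the deletion.

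Transcript levels of the 8 genes spanned a wide range, and inhibitors stood at the top of it. In TPM, a unit that corrects for transcript length and so allows genes to be compared, Timp2 had a median of 293 over the 6 libraries, Timp3 of 53.9, Furin of 23.6 and Timp4 of 14.5. Frmd8 followed with 11.8 TPM, Rhbdf1 with 8.32, Reck with 7.76 and Rhbdf2 with 1.49. Adam17 lay among them at a median of 8.55 TPM, and ADAM10, the closest relative of ADAM17 and a target of TIMP3, at 43.4 TPM. The ranges of Timp2, Timp3, Adam10 and Furin did not overlap, and this order held in 6 of 6 libraries. Furin, Timp4 and Frmd8 also kept their order in 6 of 6 libraries, although the ranges of neighbours overlapped. Adam17 and Rhbdf1 could not be ordered: Adam17 was the higher in 3 of 6 libraries. Rhbdf1 exceeded Reck in 5 of 6 libraries. Timp1, the remaining TIMP gene and not one of the 8, had a median of 2.19 TPM, below Reck in 6 of 6 libraries and above Rhbdf2 in 5 of 6.

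**Figure D1:**
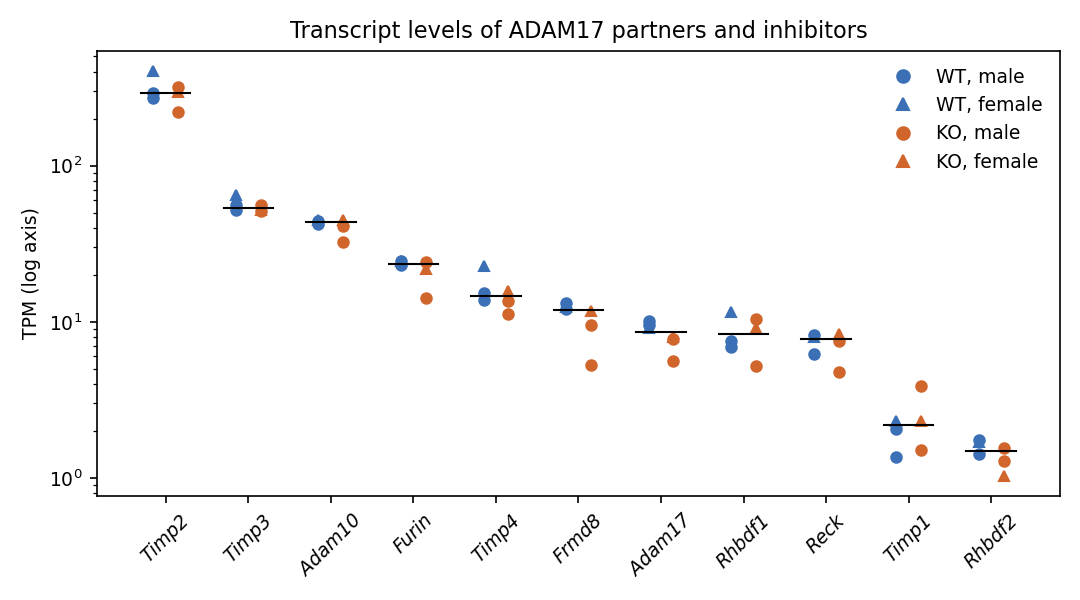
Deposited TPM of the 8 genes with Adam17, Adam10 and Timp1, on a log axis, ordered by their median over 6 libraries (bar). Circles are male and triangles female libraries, WT in blue and KO in orange; Timp2 stands alone at the top and Timp1 and Rhbdf2 lie at the bottom.

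Between the iRhoms, Rhbdf1 supplied most of the transcripts. Its share of the iRhom TPM was 84.1%, 79.7% and 87.3% in WT (replicates 1, 2 and F1), against 80.2%, 87.1% and 89.8% in KO, with overlapping genotypes. The ratio of Rhbdf1 to Rhbdf2 TPM lay between 3.94 and 8.82. Counts per TPM, relative to the library's median gene, varied between libraries by factors of 1.78 for Rhbdf1 and 1.49 for Rhbdf2. In counts, KO replicate 1 held 166 of Rhbdf1 and 83 of Rhbdf2. The size of this share and its order between libraries thus depend on the unit. Among the 4 TIMP genes, Timp2 made up 77.5% to 81.8% of the summed TPM in the 6 libraries, Timp3 13.1% to 18.1%, Timp4 3.46% to 4.63% and Timp1 0.397% to 0.985%. Timp2, Timp3 and Timp4 together gave 36.1, 35.4 and 53.6 TPM per TPM of Adam17 in WT and 50.3, 50.2 and 45.7 in KO, by the same order of replicates. WT replicate F1 was the highest library in this ratio, both male KO libraries lay above both male WT libraries, and the female KO library lay below the female WT library. Adam17, by which the ratio divides, had 9.52, 10.1 and 9.17 TPM in WT and 5.60, 7.76 and 7.94 TPM in KO. The summed TPM of the 4 TIMP genes was 345, 358 and 494 in WT and 283, 393 and 365 in KO, so the male libraries overlapped in that sum. For Timp3 alone the ratio was 5.86, 5.17 and 7.07 in WT and 9.13, 7.19 and 6.52 in KO, again with overlap.

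The question put to the 8 genes was whether their transcripts differed between KO and WT. None passed the test: 0 of 8 had an adjusted p under 0.05 in edgeR's quasi-likelihood test with genotype and sex as terms, and 0 of 8 in DESeq2. Over all genes tested 0.00528% passed in edgeR, that is 1 of 18956. The log2 fold changes lay between −0.28 for Frmd8 and 0.19 for Timp3, 4 above 0 and 4 below, with a median of −0.06 beside −0.004 over all genes tested. An unadjusted p under 0.05 was reached by 0 of the 8 and by 1210 of 18956 genes. In 1 of the 8 genes (12.5%) the genotypes did not overlap in CPM, against 13.9% of all genes tested. The CPM values that follow are scaled with TMM factors (trimmed mean of M values) and are given for replicates 1, 2 and F1 of each genotype, in that order.

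Frmd8 (ENSMUSG00000024816, chromosome 19, 5849702 to 5875274, minus strand, GRCm38 as for all gene coordinates here), which encodes the FERM-domain partner of the iRhoms, was the gene without overlap. It stood at 24.6, 21.9 and 22.4 CPM in WT and at 16.2, 18.9 and 21.8 CPM in KO. All 3 KO libraries lay below the lowest WT library, but KO replicate F1 lay only just below WT replicate 2. Group means with SD were 23.0 ± 1.46 CPM for WT and 19.0 ± 2.77 CPM for KO, over 3 libraries each. The log2 fold change of −0.28 (SE 0.135, 95% interval −0.60 to 0.04) did not pass (edgeR adjusted p = 0.735). In TPM the libraries stood at 13.1, 11.99 and 12.4 in WT and at 5.32, 9.52 and 11.7 in KO, with KO replicate 1 the lowest. Such an arrangement, with all KO below all WT libraries in TPM, was seen in 21.1% of all genes tested. Without KO replicate 1 the log2 fold change was −0.18 (edgeR adjusted p = 0.667). The antisense gene Frmd8os, which shares 388 bases of exon with Frmd8, had 17 counts over the 6 libraries against 5568 for Frmd8.

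The iRhom genes showed no shared course. Rhbdf1 (ENSMUSG00000020282, chromosome 11, 32209585 to 32222300, minus strand) encodes iRhom1, the iRhom found in most tissues. It was measured at 7.56, 8.55 and 9.71 CPM in WT and at 5.77, 9.65 and 7.99 CPM in KO. KO replicate 1 was the lowest library and WT replicate F1 the highest, and KO replicate 2 nearly equalled the latter. The log2 fold change was −0.13 (SE 0.213, 95% interval −0.64 to 0.38, edgeR adjusted p = 0.889), and without KO replicate 1 it was 0.034. Rhbdf2 (ENSMUSG00000020806, chromosome 11, 116598165 to 116627019, minus strand) encodes iRhom2, known above all from myeloid cells and microglia. Its levels were 2.17, 2.45 and 2.55 CPM in WT and 2.88, 1.92 and 1.76 CPM in KO. Here KO replicate 1 was the highest library and the other KO libraries were the lowest, so the WT range lay inside the KO range. Its log2 fold change was −0.14 (SE 0.254, 95% interval −0.75 to 0.47, edgeR adjusted p = 0.899). With 72 to 150 counts per library Rhbdf2 was the least deeply counted of the 8. The summed CPM of 10 microglial marker genes, none of them at 0 in any library, was 320 to 359 in WT and 308 to 376 in KO, with its lowest value in KO replicate 1, where Rhbdf2 was highest.

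Furin (ENSMUSG00000030530, chromosome 7, 80388585 to 80405436, minus strand), the convertase that cuts prodomains in the trans-Golgi network, was the steadiest of the 8 in CPM but not in TPM. It stood at 42.1, 43.1 and 43.9 CPM in WT and at 41.5, 48.1 and 41.3 CPM in KO. The highest library exceeded the lowest by a factor of 1.17, and both belonged to KO. Its log2 fold change was 0.02 (SE 0.108, edgeR adjusted p = 0.969), and the 95% interval reached from 0.848 to 1.21 as a ratio of KO to WT. The opposite-strand gene model Gm44851, which overlaps the start of Furin, had 24 counts over all libraries against 11350.

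**Figure D2:**
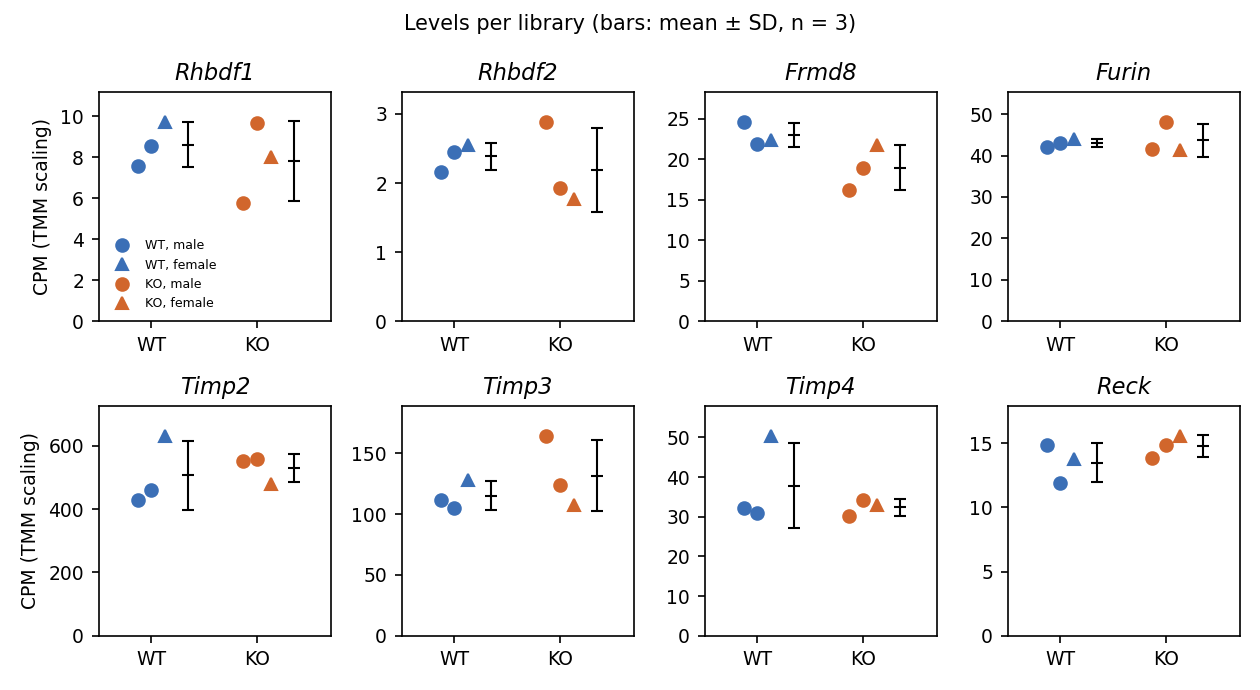
CPM of each of the 8 genes in the 6 libraries, on linear axes that start at 0, with the mean and SD of 3 libraries beside each group. Circles are male and triangles female libraries; the genotypes overlap in every panel but that of Frmd8, where KO replicate F1 at 21.8 CPM lies just under WT replicate 2 at 21.9 CPM.

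Timp2, Timp3 and Timp4 did not pass the test, and their highest CPM values belonged to WT replicate F1 or KO replicate 1. Timp2 (ENSMUSG00000017466, chromosome 11, 118301069 to 118355740, minus strand, 5 exons and 220 codons) encodes an inhibitor that also helps MMP14 activate MMP2. It was measured at 429, 459.8 and 630.5 CPM in WT and at 551, 559 and 479 CPM in KO. WT replicate F1 was the highest library and both male WT libraries were the lowest, so the KO libraries lay within the WT range. Group means with SD were 506.5 ± 109 CPM for WT and 529.7 ± 43.9 CPM for KO, over 3 libraries each, with a log2 fold change of 0.08 (SE 0.157, 95% interval −0.29 to 0.46, edgeR adjusted p = 0.907). Cep295nl, on the same strand within Timp2, shares no exonic base with it and had 100 counts over all libraries, against 136493 for Timp2.

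Timp3 (ENSMUSG00000020044, chromosome 10, 86300372 to 86349506, plus strand, 5 exons and 211 codons) encodes the TIMP that is bound to the extracellular matrix. Its levels were 112, 105 and 128 CPM in WT and 164, 124 and 107 CPM in KO. In CPM, KO replicate 1 stood above all others, and KO replicate F1 stood below 2 of the 3 WT libraries. In TPM the libraries stood at 55.8, 52.0 and 64.8 in WT and at 51.1, 55.8 and 51.7 in KO. There KO replicate 1 was the lowest and WT replicate F1 the highest. For Timp3, counts per TPM relative to the library's median gene varied between libraries by a factor of 1.01. The order of the libraries thus depended on how whole libraries were scaled. The log2 fold change of 0.19 (SE 0.176, 95% interval −0.23 to 0.61) did not pass (edgeR adjusted p = 0.815), and without KO replicate 1 it was 0.0035. The library with the highest Timp3 CPM was also the one with the largest mitochondrial share, whose part in that level was not tested. The sum of 10 astrocyte markers, none at 0 in any library, was also highest there, at 4808 CPM against 3714 to 4300 CPM in the others. The glutamate transporter gene Slc1a2 made up 2740.0 CPM of it. The markers' mean log2 CPM was 7.62 in KO replicate 1, 7.69 in WT replicate F1 and 7.36 to 7.64 in the others. The part of the astrocyte markers in the Timp3 level was not tested.

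Timp4 (ENSMUSG00000030317, chromosome 6, 115241892 to 115252205, minus strand, 5 exons and 224 codons) encodes a TIMP with a narrow expression pattern, known from heart and brain. It stood at 32.2, 31.0 and 50.3 CPM in WT and at 30.1, 34.2 and 33.0 CPM in KO. The libraries fell within 30.1 to 34.2 CPM apart from WT replicate F1. The log2 fold change of −0.19 (SE 0.155, 95% interval −0.56 to 0.18) did not pass (edgeR adjusted p = 0.796). It was 0.023 with WT replicate F1 left out, and also with KO replicate F1 left out. With a sex term, leaving out either female library leaves this difference to the males alone. WT replicate F1 was the highest of the 6 libraries in 3 of the 8 genes, Timp2, Timp4 and Rhbdf1, and in 20.0% of all genes tested. The same library had the highest sum of 8 fibroblast and meningeal markers, 1111 CPM against 542 to 938 CPM, with none of the 8 at 0 in any library. It also had the highest sum of the PVN and hypothalamus list and the lowest sums of cortical and striatal genes. The part of these in the Timp levels was not tested.

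Reck (ENSMUSG00000028476, chromosome 4, 43875530 to 43944806, plus strand) was measured at 14.9, 11.9 and 13.7 CPM in WT and at 13.9, 14.8 and 15.6 CPM in KO. KO replicate F1 was the highest library and WT replicate 2 the lowest, with WT replicate 1 inside the KO range. For Reck the log2 fold change was 0.13 (SE 0.133, 95% interval −0.19 to 0.44, edgeR adjusted p = 0.825). As a ratio of KO to WT that interval reached from 0.877 to 1.36. Without WT replicate 2 the log2 fold change was 0.047, and without WT replicate 1 it was 0.23.

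**Figure D3:**
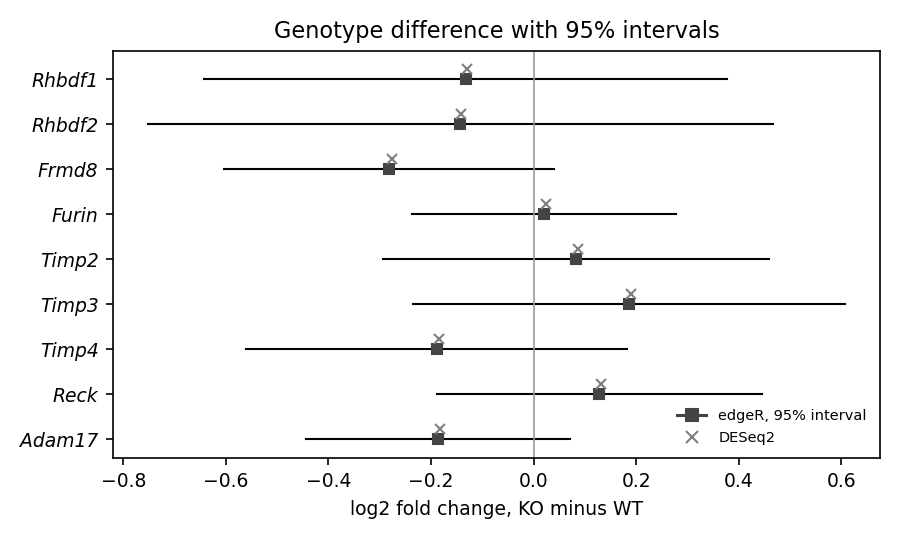
Log2 fold change (KO minus WT) of the 8 genes and Adam17 from edgeR, with 95% intervals, and the DESeq2 estimate as a cross. Every interval includes 0; the Frmd8 estimate, −0.28, lies farthest to the left, and the intervals of Rhbdf1 and Rhbdf2 are the widest.

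Among the TIMP genes, 3 lie within synapsin genes, which encode proteins of the synaptic vesicle surface, on the opposite strand: Timp1 in Syn1, Timp3 in Syn3 and Timp4 in Syn2. The strand setting of the counting is not given in the sources used here, so reads from such a pair cannot be told apart with certainty. In GENCODE, 1733 of the 8144 exonic bases of Timp3 are shared with a Syn3 exon, 90 of the 5894 of Timp4 with a Syn2 exon and 0 of the 888 of Timp1 with a Syn1 exon. Syn3 was counted less than Timp3, with 4418 counts against 31727 over the 6 libraries. Syn2 was counted far more than Timp4, with 144885 counts against 9478. In CPM, Syn2 stood at 483, 504 and 626 in WT and at 481, 667 and 517 in KO, with KO replicate 2 the highest and WT replicate F1 next, whereas Timp4 was highest in WT replicate F1 alone. The log2 fold changes were 0.05 for Syn2 and −0.07 for Syn3, and neither passed (edgeR adjusted p = 0.941 and 0.912). Syn1 stood at 792, 861 and 700.5 CPM in WT and at 1592, 1106 and 865.5 CPM in KO, with all KO above all WT libraries. The summed CPM of 8 neuron markers, none at 0 in any library, was 6092 to 7254 in WT and 7261 to 9179 in KO. That sum was highest in KO replicate 1, as for Syn1, and Snap25 made up 4015 CPM of it there. Of the 8 markers 4 had log2 fold changes above 0. In 2 of the 8 markers the genotypes did not overlap, as in Syn1. Over all genes tested 13.9% did not overlap, in either direction. Eno2 and Tubb3 were lowest in KO replicate 1. The part of the neuron markers in the Syn1 level was not tested. The Syn1 difference, 0.57 on the log2 scale with an SE of 0.166, was not called (edgeR adjusted p = 0.735). Timp1, the TIMP gene known to be induced in reactive glia, was measured at 0.508, 0.801 and 0.849 CPM in WT and at 0.903, 1.63 and 0.907 CPM in KO. All KO libraries lay above all WT libraries, KO replicate 2 most of all, and the difference, 0.67 on the log2 scale with an SE of 0.381, was not called (edgeR adjusted p = 0.747). The 6 libraries held 243 counts of Timp1 and 244298 of Syn1.

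Sex was the other label in the design, with 2 female against 4 male libraries. None of the 8 genes differed between the sexes past the threshold, where 0.0422% of all genes tested did so. Timp4 came nearest, with a log2 difference of 0.37 (female minus male, SE 0.162, edgeR adjusted p = 0.941), which rested on WT replicate F1: without that library it was 0.039.

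In CPM, the difference between KO and WT pointed in opposite directions in the male and female libraries for Timp2 and Timp3. For Timp4 it was near 0 in the males, whose genotypes overlapped, and below 0 in the females. In the males, the difference in mean log2 CPM (KO minus WT) was 0.32 for Timp2, 0.40 for Timp3 and 0.02 for Timp4. In the females, with 1 library a genotype and so no spread, it was −0.40, −0.26 and −0.61. For Timp2 both male KO libraries, 551 and 559 CPM, lay above both male WT libraries, 429 and 459.8 CPM. The female KO library at 479 CPM lay below the female WT library at 630.5 CPM. In TPM the male libraries of Timp2 overlapped, at 272 and 290.5 in WT against 219 and 320 in KO. For Timp3 the male means in TPM were 53.91 in WT and 53.45 in KO, so the male rise depended on how whole libraries were scaled. Rhbdf2 and Furin also had log2 CPM differences of opposite sign, 0.03 and 0.07 in the males against −0.52 and −0.09 in the females. The share of all genes tested with opposite signs in males and females was not counted, so opposite signs are not a trait of these genes. The product of genotype and sex, fitted with 2 residual degrees of freedom, was −0.72 for Timp2 (SE 0.196, 95% interval −1.19 to −0.24), −0.67 for Timp3 (SE 0.285) and −0.63 for Timp4 (SE 0.240). None passed over all genes (edgeR adjusted p = 0.397, 0.695 and 0.607), where 0.0739% of all genes tested passed. An unadjusted p under 0.05 was reached by 2 of the 8 genes, Timp2 and Timp4 (25.0%), and by 7.42% of all genes tested. The other 5 genes had values between −0.58 for Rhbdf2 and 0.36 for Frmd8, with unadjusted edgeR p between 0.237 and 0.809. Leaving out a male library leaves 1 residual degree of freedom, and the spread then comes from the 2 male libraries of the other genotype, with each remaining group of 1 library assumed to vary like them. Timp2 passed without KO replicate 1 (edgeR adjusted p = 0.0407), where 1.68% of all genes tested passed. Without KO replicate 2, where 7.71% passed, so did Timp2 and Timp3 (edgeR adjusted p = 0.0249 and 0.0206). Neither passed without WT replicate 1 or WT replicate 2 (edgeR adjusted p = 1.0 in each), where 0.83% and 0.818% of all genes passed, so these calls moved with which male pair set the spread. Each female value is a single library, and WT replicate F1 also stood apart in the regional genes, so sex and library cannot be told apart here.

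**Figure D4:**
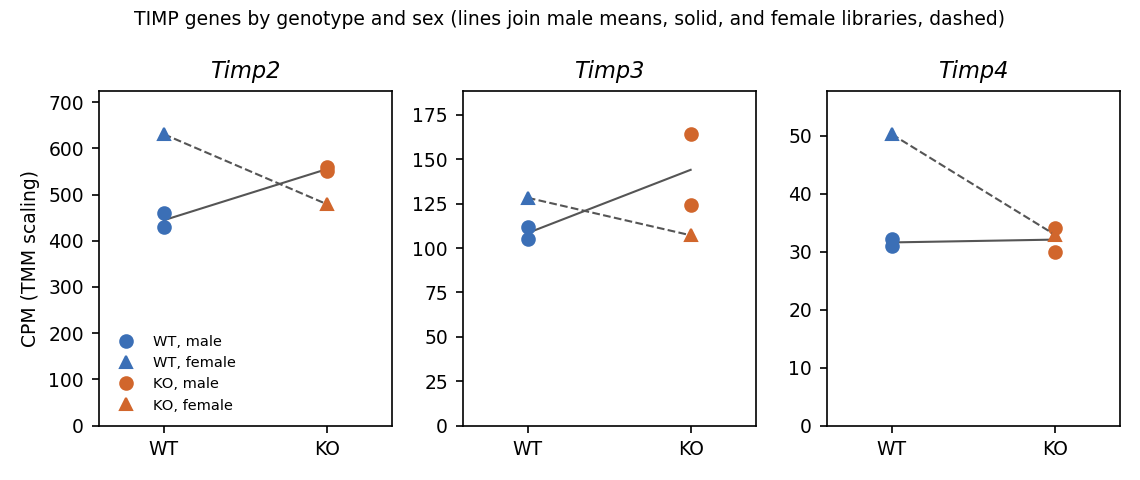
CPM of Timp2, Timp3 and Timp4 by genotype, on axes that start at 0, with male libraries as circles joined at their means by a solid line and female libraries as triangles joined by a dashed line. For Timp2 and Timp3 the solid line goes up from WT to KO and the dashed line goes down; for Timp4 the solid line is nearly level at 31.6 to 32.1 CPM.

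The genes around the 8 in the pathway gave the same count of calls. Of 86 listed genes 85 were tested, 0 rose and 0 fell past the threshold, 36 had log2 fold changes above 0 and 49 below, and their median was −0.02 beside −0.004 over all genes tested. Adam10, the gene of the protease closest to ADAM17, stood at 81.6, 79.5 and 84.7 CPM in WT and 101, 87.9 and 88.2 CPM in KO, with all KO above all WT libraries (log2 fold change 0.17, SE 0.102, edgeR adjusted p = 0.747). In the list of ADAM17 trafficking and phosphorylation, with 20 genes for kinases, 14-3-3 proteins, tetraspanins and sorting factors, 11 lay above 0 and 9 below. Prkca, the protein kinase C that mediates phorbol-ester-induced shedding, stood at 200.5, 195 and 177 CPM in WT and at 276, 221.5 and 223 CPM in KO, a log2 fold change of 0.33 (SE 0.109, edgeR adjusted p = 0.735). Ywhah, a 14-3-3 protein gene, had a log2 fold change of 0.35 (SE 0.130, edgeR adjusted p = 0.735). Prkca and Ywhah were highest in KO replicate 1, where the sum of the neuron markers was highest too. In 6 of the 20 genes the genotypes did not overlap, 5 with KO higher and 1 with KO lower, beside 13.9% of all genes tested, 1253 with KO higher and 1388 with KO lower.

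Among 12 other rhomboid family genes 9 lay below 0 and 3 above. The smallest p values belonged to Rhbdd3, a rhomboid-like gene, with a log2 fold change of −0.40 (SE 0.214), and Derl1, a component of retrotranslocation from the endoplasmic reticulum, with −0.17 (SE 0.119), neither past the threshold (edgeR adjusted p = 0.744 and 0.777). Rhbdd3 was lowest in KO replicate 1, at 5.25 CPM, and highest in KO replicate F1, at 11.4 CPM. Of 10 genes for the other convertases and their chaperones 3 lay above 0 and 7 below, with Pcsk5 at 0.31 (SE 0.186) and the neuroendocrine convertase Pcsk2 at 0.24 (SE 0.166), neither past the threshold (edgeR adjusted p = 0.747 and 0.777). Pcsk2 stood at 296 CPM in WT replicate F1 and at 456 to 502 CPM in the other 5 libraries.

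Of 20 metalloproteinases inhibited by TIMPs or RECK 19 were tested, 6 above 0 and 13 below, with a median of −0.03. Adamts4, an aggrecanase of oligodendrocytes, stood at 30.0, 29.4 and 30.8 CPM in WT and at 22.7, 23.0 and 27.5 CPM in KO, a log2 fold change of −0.31 (SE 0.103, edgeR adjusted p = 0.735). Mmp9, a gelatinase, had a log2 fold change of −0.88 (SE 0.439, edgeR adjusted p = 0.738) that rested on WT replicate 1, at 5.54 CPM where the other 5 libraries lay between 1.60 and 2.45 CPM. Adam28 was not tested, with 0.0442 CPM in WT replicate 1 and 0 in the others. In the RECK, GPR124 and WNT7 list 7 of 12 lay above 0 and 5 below: Ctnnb1, encoding beta-catenin, had a log2 fold change of −0.30 (SE 0.128, edgeR adjusted p = 0.735) and Apcdd1, an inhibitor of WNT signalling, of 0.20 (SE 0.119, adjusted p = 0.747). Of 6 other binding partners of TIMPs 2 lay above 0 and 4 below, with Cd63, the tetraspanin that binds TIMP1, at −0.34 (SE 0.127) and the integrin gene Itga3 at −0.23 (SE 0.101), both with an edgeR adjusted p of 0.735.

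The genes whose levels followed each of the 8 most closely were sought among 13581 named genes by Pearson correlation of log2 CPM over the 6 libraries. With so few libraries, which share depth and makeup, these r values are a description. Timp3 followed Gng2 (r = 0.998), Plagl1 and Ptchd4, and 149 genes had an r above 0.95 with it. All 3 were highest in KO replicate 1, Plagl1 at 77.0 CPM against 26.1 to 42.2 CPM in the other libraries. Timp2 followed Ano6 (r = 0.994), Npy2r and Nectin2, all highest in WT replicate F1, and Timp4 followed Plpp5 (r = 0.995), Ttll3 and Dner, with the same library at the top. Frmd8 followed Ndufs4 (r = 0.996), Thap3 and Nat9, and 121 genes had an r above 0.95 with it. Rhbdf1 followed Gstt1 (r = 0.996), Eme2 and Eif1b, Rhbdf2 followed Snx6 (r = 0.992), Gab1 and Gbp3, and Furin followed Klhl5 (r = 0.999), Tmem159 and Rap2a. Reck had the fewest close matches, 7 with an r above 0.95, led by Trit1 (r = 0.974), Angpt2 and Arg2. Among the 8 themselves the r values lay between −0.81 for Frmd8 with Timp3 and 0.69 for Timp2 with Timp4, and the iRhom genes had an r of −0.44 with each other.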

How the data were processed

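Messenger RNA was measured in 6 libraries, 3 WT and 3 KO. RNA was isolated by a phenol-based method and made into mRNA libraries, per the labels' protocols. The submitters' processing notes name FastQC 0.11.2, Trimmomatic 0.36 and bedtools 2.26.0, with no role; aligner, counter, strand setting and build were not given in the sources used here. Per the file headers, the deposited table lists counts, TPM and FPKM of 51826 Ensembl genes per library. Tests used the deposited counts; the deposited TPM served for levels between genes, ratios and 1 alternative test, and the deposited FPKM values were only checked against TPM. GENCODE M21 (GRCm38) held 51633 (99.6%) of the identifiers, 94.2% of them with identical coordinates, so coordinates are read as GRCm38.

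Counts were filtered with filterByExpr by genotype and scaled with TMM factors, and genotype and sex were tested with robust quasi-likelihood fits in edgeR 4.0.16 (R 4.3.3), with Benjamini-Hochberg adjustment over all genes at 0.05. The product of genotype and sex came from a fit with that term added. Each SE is the size of the log2 fold change over the square root of F, and 95% intervals use the fit's total degrees of freedom. The fit was tested on simulated data. Alternatives used DESeq2 1.42.0, limma 3.58.1, other scalings, filters and terms, and leaving out libraries; 2 of them, named in the closing section, were chosen after seeing the data. The 8 genes and the gene lists were chosen with earlier results of these data known. By rule, the text names the 8 genes, Adam17, Adam10, Timp1, the synapsin genes, the 2 genes with the smallest p of each list where none passed, genes that overlap the 8, and for each of the 8 the 3 named genes that averaged 1 CPM or more and had the highest r; other marker genes were chosen after their values were seen. Promoter sequences are from RefSeq (GRCm38.p6), trimmed to the bases before the start and, where printed, to those outside the GENCODE gene span.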

Additional observations from a re-analysis of the deposited data

How the results depend on the processing

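None of the 8 genes passed in any of 144 fits of the KO against WT difference (18 alternatives), where the smallest adjusted p was 0.538, for edgeR, DESeq2 or limma. Frmd8 stayed below 0 in all 18, at −0.52 to −0.18. The other 7 genes changed sign in 20 of these fits. With library totals and no scaling the median of all genes moved to −0.17, and Furin (−0.14), Timp2 (−0.083) and Reck (−0.035) lay below 0; relative to that median they were at 0.029, 0.085 and 0.13. On log2(TPM + 1) the median moved to −0.26, and Furin (−0.28), Timp2 (−0.21), Timp3 (−0.12) and Reck (−0.13) lay below 0; relative to it Timp2 was at 0.055, Timp3 at 0.15, Reck at 0.13 and Furin at −0.014. Rhbdf1 was at 0.038 with voom and sample quality weights. With the male libraries only, Rhbdf2 was at 0.049 and Timp4 at 0.023. These values recurred with either female library left out, because the sex term then leaves the genotype difference to the males. Such alternatives are therefore not separate checks, although each is counted among the 18. With both WT replicate F1 and KO replicate 1 omitted and sex not in the model, an alternative chosen after seeing the data in which KO replicate F1 is the only female library, Rhbdf1 was at 0.14 and Timp4 at 0.089. The cause of these changes of sign was not tested.

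Leaving out each library in turn, the log2 fold change (KO minus WT) ranged from −0.39 to 0.034 for Rhbdf1, −0.37 to 0.049 for Rhbdf2, −0.058 to 0.074 for Furin, −0.020 to 0.32 for Timp2, 0.0035 to 0.41 for Timp3, −0.30 to 0.023 for Timp4, 0.047 to 0.23 for Reck and −0.40 to −0.18 for Frmd8. For the genes that changed sign, the sex difference (female minus male) ranged from −0.43 to 0.14 for Rhbdf2, −0.051 to 0.31 for Frmd8, −0.12 to 0.043 for Furin, −0.21 to 0.50 for Timp2 and −0.43 to 0.24 for Timp3. The product of genotype and sex, with each male library left out (chosen after seeing the data), ranged from −0.54 to 0.20 for Rhbdf1 and −0.094 to 0.23 for Reck. It kept its sign for Timp2 (−0.77 to −0.67), Timp3 (−0.85 to −0.45) and Timp4 (−0.72 to −0.53).

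Over all genes, KO against WT gave 1 call, and 75 with DESeq2 (53 higher, 22 lower), 4 without a filter on low counts, 4 with voom, 4 on log2(TPM + 1), 3 without a sex term, 18 in males only, 0 to 20 leaving out each library and 27 when both WT replicate F1 and KO replicate 1 were omitted. Sex gave 8 calls, 52 with DESeq2 and 6 to 25 leaving out each library. The product gave 14, 237 with DESeq2 and 159 to 1493 leaving out each male library. The replicate numbers are not said to pair samples, and same-numbered libraries did not deviate together (r of −0.0437, 0.0186 and 0.0182), nor did each correlate best with its own number. The fit with a replicate block in place of sex gave 0 calls, with 1003 genes at an unadjusted p under 0.05, where edgeR with sex gave 1210 and DESeq2 1297. The ratios could not be recomputed from CPM per gene length, because no gene length is in the table used here. Depth limits Rhbdf2, with 72 to 150 counts a library, and Timp1 most.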

Other observations

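The TMM-scaled CPM and the deposited TPM placed the libraries differently. KO replicate 1 was the lowest library for 3 of the 8 genes in CPM and for 7 in TPM, all but Rhbdf2. The share of all genes that were lowest there was not counted, so these counts are not a trait of the 8. On log2(TPM + 1), 10.87% of all genes tested lay above 0 (KO minus WT), against 49.4% in the main edgeR fit. The highest or the lowest library differed between the units in 5 of the 8: Rhbdf2, Furin, Timp2, Timp3 and Reck. Timp3 was highest in KO replicate 1 in CPM and lowest there in TPM, and Rhbdf2 was highest in KO replicate 1 in CPM and in WT replicate 2 in TPM.

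Counts per TPM, relative to the library's median gene, varied between libraries by a factor of 1.78 for Rhbdf1, from 0.657 in KO replicate 1 to 1.17 in WT replicate 2, of 1.49 for Rhbdf2 and of 1.36 for Timp4, where the median factor over 18950 genes was 1.06. For Timp2 and Timp3 it was 1.01, for Frmd8 and Furin 1.05 and for Reck 1.09.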
